A study of Rattus norvegicus with 6 samples.

Results

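Transcripts of 8 genes that mark or control cell division (Mki67, Top2a, Cdk1, Ccnb1, Ccna2, Pcna, Ccnd1 and Cdkn1a) were followed in primary rat BMSCs, stromal cells isolated from bone marrow. The 8 genes were chosen by name, as Ensembl gene IDs, from the 32883 IDs of the deposited table. All 8 passed the filter on low counts that left 12702 genes for testing. BMSCs grow attached to plastic and can mature into bone-forming, fat-storing or cartilage cells. According to the labels, all cells came from cultures in alpha-MEM with fetal bovine serum at 10%. Low oxygen meant an atmosphere of 1% O2, kept for 7 days, in 3 samples (Hypoxia replicates 1 to 3). The other 3 samples are labelled normal (Control replicates 1 to 3), with no oxygen percentage and no culture time given for them. No genotype, strain, sex or age of the rats is given, and no label says whether replicates came from separate animals or cultures. The p-values therefore describe differences relative to the spread of these libraries, which may be technical. The RNA extraction text names muscle as the source, while all other labels give BMSCs. The cell type was not checked against marker genes here because no table at hand pairs the IDs with names.

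The names of the 8 genes rest on the list that defines them. In the deposited table the 8 IDs stand in the order of their symbols by RefSeq chromosome name and start, which checks no single pair. The RefSeq table at hand holds all 8 symbols but an Ensembl ID for 0 of its 47357 genes, so no pair of ID and symbol could be compared with it. Other cell cycle genes, among them the replication, mitosis, cyclin and inhibitor lists drawn up for this comparison, were not analysed here for the same reason.

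A dividing cell passes through a growth phase, DNA synthesis, a second growth phase and mitosis, and each step is driven by a cyclin bound to a cyclin-dependent kinase (CDK). Cyclin D1, the product of Ccnd1, carries growth factor signals into the first growth phase, cyclin A2 acts in DNA synthesis and after it, and cyclin B1 with CDK1 drives entry into mitosis. The product of Cdkn1a, known as p21, inhibits cyclin-CDK complexes and is a classic target of the tumour suppressor p53. In expanded stromal cultures these genes are commonly read as signs of how many cells are cycling and how many are held back.

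Total counts per library were 13273781 to 13361629 in the Control group and 14879124 to 18533675 in the Hypoxia group. Levels are given as CPM, read counts per fixed library size after scaling with TMM factors, which correct for differences in library composition. Control replicate 2 stood apart from the other controls, with a mean chi-square per gene of 6.48 and 6.57 against them, where 1.51 separated Control replicates 1 and 3 and sampling noise alone gives 1. Values without this library are given beside each gene. Libraries of different groups were separated by 40.6 to 52.2 on the same measure. A batch that went with the groups could not be told apart from oxygen.

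After 7 days at 1% O2 the transcripts of Ccnd1 and Cdkn1a were lower, while the markers of DNA synthesis and mitosis lay close to their control levels. Cdkn1a fell to 0.598 of control and Ccnd1 to 0.760 of control. Mki67, Top2a, Ccnb1 and Ccna2 did not pass the test, with point estimates from -3.2% (Top2a) to 1.7% (Ccnb1) relative to control. Cdk1 rose 1.13-fold and only just passed the test, and Pcna, at 0.912 of control, only just missed it. In all, 3 of the 8 genes passed an adjusted p of 0.05 (edgeR quasi-likelihood test, Benjamini-Hochberg over all tested genes, n = 3 and 3), 1 higher and 2 lower. Over all tested genes 45.0% passed, 23.1% higher and 21.9% lower, so a count of 3 in 8 is near the background. The median size of change was 0.09 on the log2 scale for the 8 genes and 0.23 for all tested genes. The 4899 tested genes whose average level lay within the range of the 8 had a median size of 0.18, and 55.6% of them passed the test. In bulk RNA, fewer cells of one kind and less of a transcript per cell cannot be told apart.

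**Figure D1:**
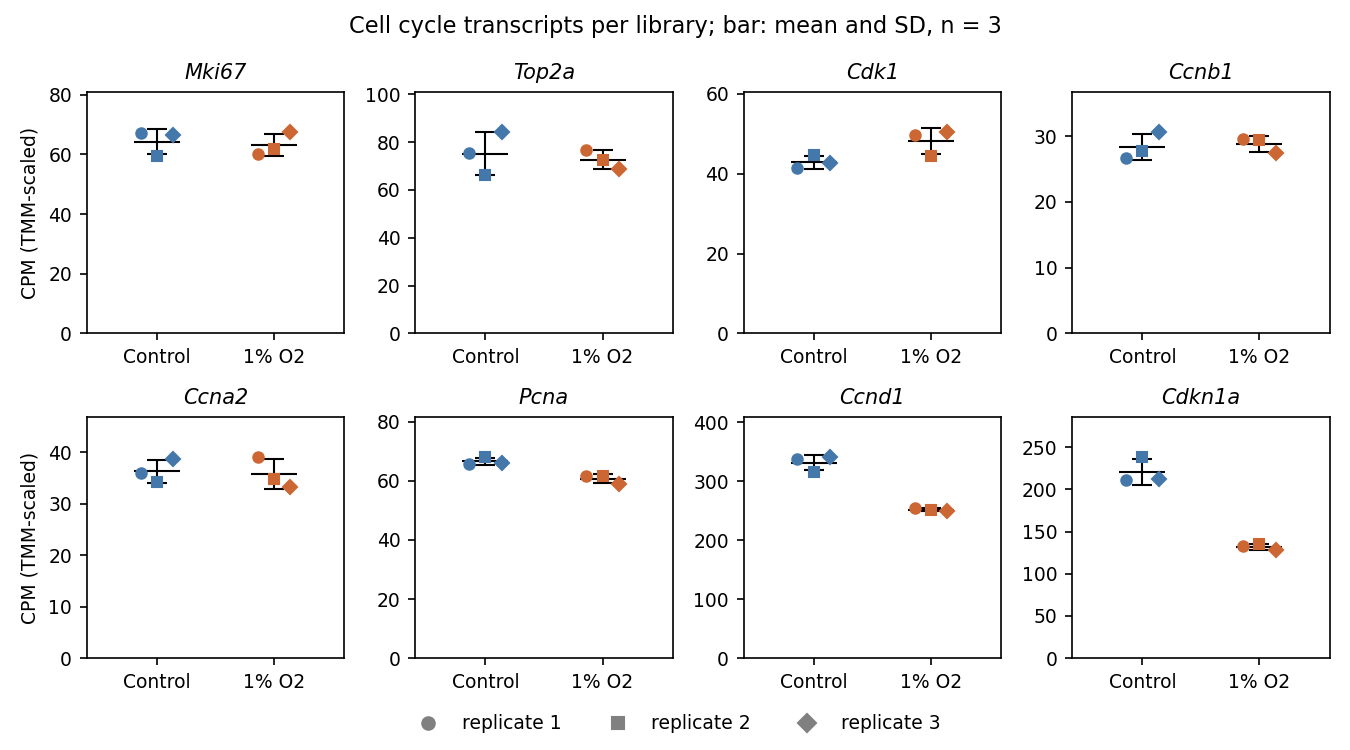
Levels of the 8 transcripts in each library, in TMM-scaled CPM (vertical axes start at 0), for Control and 1% O2; symbols give the replicate, and the black marks give the mean and SD of 3 libraries. The groups are separate for Ccnd1, Cdkn1a and Pcna and overlap for the other 5 genes.

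The inhibitor was the gene with the largest difference of the 8. Cdkn1a (ENSRNOG00000000521) stood at 211.6, 238.5 and 212.5 CPM in Control replicates 1 to 3 and at 132.6, 135.3 and 128.6 CPM in Hypoxia replicates 1 to 3. Every Hypoxia library was below every Control library, with a wide gap between the groups. The group means were 220.9 ± 15.3 and 132.2 ± 3.4 CPM (SD, n = 3 each). The difference amounted to a log2 fold change of -0.74 ± 0.05 (SE), with an adjusted p of 7.75e-08 by edgeR, a fall of 1.67-fold. Of all tested genes, 4.02% had a log2 fold change as low or lower. Control replicate 2 held the highest Cdkn1a level, and without it the log2 fold change was -0.68, with an adjusted p of 1.11e-15 by edgeR. That p is lower although the difference is smaller. The SE was lower too, 0.037 in place of 0.053. The spread shared across genes was also estimated anew without this library, and what lowered the p was not tested. Scaling by library totals alone, which moves the log2 fold changes of all genes by -0.09 at the median, gave -0.83. The direction and the call held under all 15 alternatives that were run.

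The D-type cyclin moved the same way. Ccnd1 (ENSRNOG00000020918), which links growth factor signals to the start of the cycle, had the most reads of the 8, with 3584 to 4689 reads per library. Its levels were 336.7, 316.1 and 340.8 CPM in the controls and 254.8, 250.8 and 249.5 CPM at 1% O2. The Hypoxia libraries lay within a narrow band and all below the lowest control. The means were 331.2 ± 13.2 and 251.7 ± 2.7 CPM (SD, n = 3 each), and the log2 fold change was -0.40 ± 0.04 (SE), with an adjusted p of 6.02e-06 by edgeR. This is a fall of 1.32-fold, and 12.1% of all tested genes had a log2 fold change as low or lower. The coefficient of variation among the Hypoxia libraries was 1.09%, below the 1.59% that counting alone would give. Over the alternatives the log2 fold change lay between -0.48 and -0.37 and passed the test each time, with -0.43 without Control replicate 2.

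Genes of mitosis often share promoter elements, so the sequence before the start site of several members is shown. CCAAT boxes, bound by the factor NF-Y, and the CHR element TTTGAA, bound by the DREAM and MuvB complexes, are textbook features of promoters that are silent in resting cells. p21 is known to favour the repressive DREAM form. RefSeq promoter windows (build GRCr8, not the rn6 build of the counts) were at hand for 6 of the 8 genes, without Ccna2 and Ccnd1. Positions are counted back from the annotated start, with -1 the last base before it. Capitals mark CCAAT (or ATTGG on the other strand) and TTTGAA (or TTCAAA). The stretches are chr10:84473094-84473343 (minus strand) for Top2a, chr20:19265043-19265251 (plus strand) for Cdk1, chr2:33655226-33655475 (minus strand) for Ccnb1 and chr20:7150682-7150819 (plus strand) for Cdkn1a, each read 5′ to 3′ on the strand of the gene. Those of Cdk1 and Cdkn1a end at -42 and -113, where the RefSeq span of the gene begins.
Top2a: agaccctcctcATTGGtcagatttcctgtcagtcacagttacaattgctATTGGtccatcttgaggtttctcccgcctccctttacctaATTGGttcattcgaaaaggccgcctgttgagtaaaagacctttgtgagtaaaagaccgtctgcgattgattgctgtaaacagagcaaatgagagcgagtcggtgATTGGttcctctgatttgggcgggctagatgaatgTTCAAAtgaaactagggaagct
Cdk1: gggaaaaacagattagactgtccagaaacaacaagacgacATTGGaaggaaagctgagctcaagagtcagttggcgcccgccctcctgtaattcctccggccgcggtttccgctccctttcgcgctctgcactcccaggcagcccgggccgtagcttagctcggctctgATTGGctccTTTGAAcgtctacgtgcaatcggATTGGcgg
Ccnb1: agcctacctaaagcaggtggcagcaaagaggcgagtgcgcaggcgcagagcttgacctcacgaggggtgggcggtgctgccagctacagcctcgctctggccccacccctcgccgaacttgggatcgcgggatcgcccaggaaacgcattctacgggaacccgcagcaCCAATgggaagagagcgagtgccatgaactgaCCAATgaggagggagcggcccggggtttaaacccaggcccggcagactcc
Cdkn1a: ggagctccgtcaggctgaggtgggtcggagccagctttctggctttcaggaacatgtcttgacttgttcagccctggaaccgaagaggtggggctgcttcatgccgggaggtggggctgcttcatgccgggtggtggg

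Top2a held 4 CCAAT boxes and 1 CHR element in the 250 bases before its start, and Cdk1 held 3 and 2. All of these are in the printed stretches except 1 CHR element of Cdk1, at -16, which lies beyond the end of its stretch. Mki67, whose window lies inside the RefSeq span of the gene and is not printed, held 4 and 2. Ccnb1 held 2 CCAAT boxes and no TTTGAA, Pcna held 1 and none, and Cdkn1a had neither in the annotated window. TTTGAA was the only form of the CHR element searched. A promoter without these letters may hold another form of it. On both strands, CCAAT occurred in 5 of the 6 members and in 34.0% of all 33469 promoter windows, and TTTGAA in 3 of the 6 and in 16.2%. Of other motifs searched, the GC box GGGCGG, the motif of SP1, which the series title names, was found in 5 of the 6 members and in 30.5% of all windows. The core ACGTG of hypoxia response elements was found in 1 of the 6 (Cdk1) and in 16.6% of all, and the E2F letters TTTGGCGC, TTTCGCGC, TTTCCCGC or TTTGCCGC in 1 of the 6 (again Cdk1) and in 1.73%. GC boxes and the other motifs can overlap in these windows. A match describes the letters only, and other start sites of these genes were not searched.

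The proliferation antigen and the topoisomerase showed no difference beyond the spread. Mki67 (ENSRNOG00000028137) encodes the Ki-67 protein, which coats mitotic chromosomes and is absent from resting cells. Its levels were 67.1, 59.4 and 66.4 CPM in the controls and 60.3, 61.9 and 67.5 CPM at 1% O2. The groups overlapped fully, with the lowest value in Control replicate 2 and the highest in Hypoxia replicate 3. The log2 fold change was -0.03 ± 0.06 (SE), with an adjusted p of 0.758 by edgeR and an approximate 95% interval for the difference from -10.7% to 8.0% of the control level. Top2a (ENSRNOG00000053047), which untangles DNA for chromosome separation, stood at 75.3, 66.1 and 84.1 CPM in the controls and at 76.6, 72.6 and 68.7 CPM at 1% O2. The controls alone spanned both the lowest and the highest value. Its log2 fold change was -0.05 ± 0.08 (SE), with an adjusted p of 0.636 by edgeR and an interval from -13.6% to 8.4%. Without Control replicate 2, where Top2a was lowest, the value was -0.13 with an adjusted p of 0.053, and without Control replicate 3, where it was highest, 0.04 with an adjusted p of 0.681. The sign for Mki67 turned without Control replicate 1 (0.006) or Hypoxia replicate 1 (0.007), and without Control replicate 2, where Mki67 was lowest, its log2 fold change was -0.08 with an adjusted p of 0.241.

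The cyclins of DNA synthesis and mitosis also overlapped between groups. Ccna2 (cyclin A2, ENSRNOG00000015423) stood at 36.0, 34.2 and 38.7 CPM in the controls and at 39.1, 34.9 and 33.3 CPM at 1% O2, and both the highest and the lowest library were Hypoxia libraries. The log2 fold change was -0.02 ± 0.08 (SE), with an adjusted p of 0.872 by edgeR and an interval from -11.6% to 10.5%. Its sign turned without Control replicate 3 or Hypoxia replicate 3 (0.03 each), and without Control replicate 2 the value was -0.05. Ccnb1 (cyclin B1, ENSRNOG00000058539), with the fewest reads of the 8 (365 to 532 per library), stood at 26.8, 27.8 and 30.6 CPM in the controls and at 29.6, 29.4 and 27.4 CPM at 1% O2. The highest value was Control replicate 3 and the lowest Control replicate 1. The log2 fold change was 0.02 ± 0.07 (SE), with an adjusted p of 0.806 by edgeR and an interval from -8.8% to 13.4%. It turned to -0.02 without Control replicate 1 and to -0.06 with library totals alone, was 0.01 without Control replicate 2, and no setting brought it past the test. The intervals of Mki67, Top2a, Ccna2 and Ccnb1 reach from -13.6% (Top2a) to 13.4% (Ccnb1) at their widest and do not include a change of the size seen for Ccnd1, -24.0%.

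The kinase that partners cyclin B1 differed slightly. Cdk1 (ENSRNOG00000000632) stood at 41.3, 44.7 and 42.6 CPM in the controls and at 49.8, 44.4 and 50.4 CPM at 1% O2. Hypoxia replicates 1 and 3 were above all controls, and Hypoxia replicate 2 lay just below Control replicate 2. The log2 fold change was 0.17 ± 0.07 (SE), with an adjusted p of 0.0477 by edgeR. This call was lost without Control replicate 1 (0.15, adjusted p 0.144), Control replicate 3 (0.17, adjusted p 0.106), Hypoxia replicate 1 (0.14, adjusted p 0.162) or Hypoxia replicate 3 (0.14, adjusted p 0.167), and held without Control replicate 2 (0.20, adjusted p 0.0101) or Hypoxia replicate 2. It was also lost by DESeq2 (adjusted p 0.111), by limma-voom (adjusted p 0.0501), with a replicate block (adjusted p 0.086), after thinning all libraries to equal depth (adjusted p 0.0724) and with library totals alone (0.08, adjusted p 0.325).

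Pcna (ENSRNOG00000021264), the sliding clamp that holds DNA polymerase on its template, leaned the other way. It stood at 65.7, 68.0 and 65.9 CPM in the controls and at 61.6, 61.5 and 59.0 CPM at 1% O2. All Hypoxia libraries were below all controls, as was so without overlap, in the lower direction, for 27.4% of all tested genes. The spread within groups was small, with coefficients of variation of 1.92% and 2.39%, below the counting error of 3.31% and 3.24%. The log2 fold change was -0.13 ± 0.05 (SE), with an adjusted p of 0.051 by edgeR, so the gene was not called. Without Control replicate 2 these values were -0.11 and 0.0718. It passed the threshold with median-of-ratios factors (adjusted p 0.0492), with a minimum of 1 CPM in 3 libraries (adjusted p 0.0495), by limma-voom (adjusted p 0.0498) and with library totals alone (-0.22, adjusted p 0.00333). Groups that did not overlap were found for 3 of the 8 genes (Pcna, Ccnd1 and Cdkn1a) and for 55.5% of all tested genes.

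**Figure D2:**
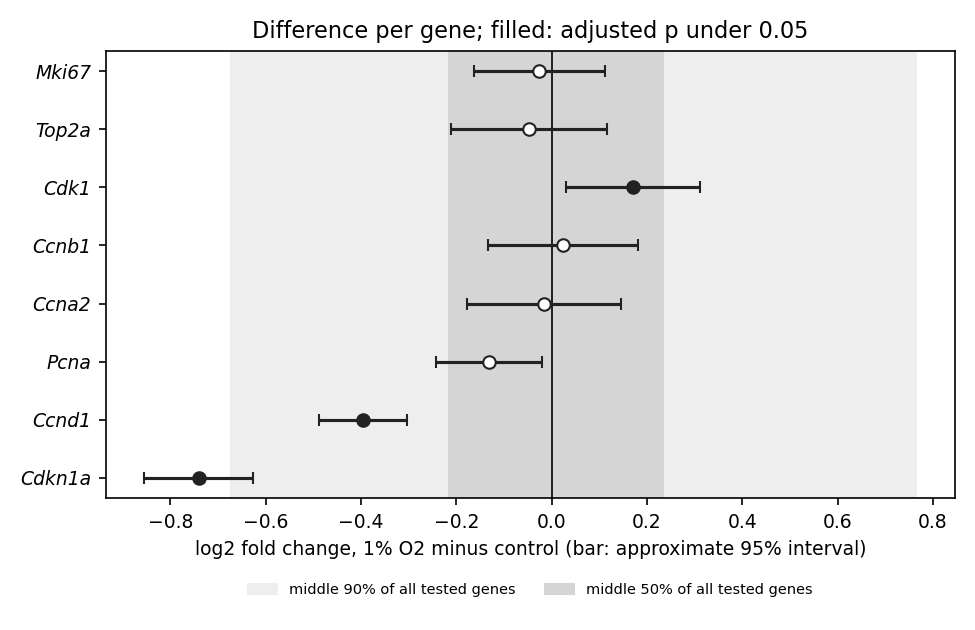
Log2 fold change of each gene at 1% O2 against control (horizontal axis) with its approximate 95% interval from 3 and 3 libraries; filled points passed an adjusted p of 0.05, and the grey bands give the middle 50% and 90% of all 12702 tested genes. Cdkn1a at -0.74 lies below the 90% band, Ccnd1 at -0.40 lies between the bands, and the other 6 genes lie within the 50% band.

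Together the 8 transcripts took 0.0884%, 0.0884% and 0.0908% of all reads in the controls and 0.0683%, 0.0671% and 0.0661% at 1% O2. Most of the drop in this sum came from Ccnd1 and Cdkn1a, which also had the most reads of the 8. The summed level of Mki67, Top2a, Cdk1, Ccnb1 and Ccna2 was 246.5, 232.1 and 262.4 CPM in the controls and 255.4, 243.2 and 247.4 CPM at 1% O2. These sums are TMM-scaled, while the shares of all reads above carry no TMM factors. On the TMM scale all Hypoxia sums fell between the lowest and the highest control. With library totals alone the log2 fold changes were -0.12 for Mki67, -0.14 for Top2a and 0.08 for Cdk1. For Ccnb1 and Ccna2 they were -0.06 and -0.11, so without TMM factors 4 of the 5 genes leaned lower. Within the controls the replicates differed among themselves: Control replicate 3 was above the control mean (log2 scale) for 4 of these 5 genes and Control replicate 2 for 1 of 5, while Cdkn1a was highest in Control replicate 2. Hypoxia replicate 1 was above the Hypoxia mean for 4 of the 5 genes, and Hypoxia replicates 2 and 3 for 2 each. There Cdkn1a was highest in Hypoxia replicate 2. A link between Cdkn1a and the 5 genes was not tested.

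Ratios between 2 transcripts of one library do not depend on the scaling of that library. Their differences between groups nearly equal the differences between the log2 fold changes given above for the 2 genes. They therefore restate those changes and are no separate evidence. The ratio of Mki67 to Cdkn1a was -1.654, -2.002 and -1.675 on the log2 scale in the controls and -1.14, -1.13 and -0.93 at 1% O2. Every Hypoxia library was higher, and the means differed by 0.71, or 1.64-fold, and by 0.60 without Control replicate 2, where this ratio was lowest. Cdk1 to Ccnd1 went from a mean of -2.95 ± 0.11 to -2.38 ± 0.10 (SD, n = 3 each), a rise of 0.56 without overlap. For Ccnb1 to Pcna the rise was 0.16, and the groups only just separated, with a highest control of -1.104 and a lowest Hypoxia value of -1.102. These 3 ratios each had p = 0.1 in the exact two-sided permutation test, the smallest that 3 samples against 3 allow, and 0.133 after adjustment over the 4 pairs. Top2a to Pcna overlapped between groups, with means of 0.17 ± 0.20 and 0.26 ± 0.05 and an exact permutation p of 0.6. Its difference of 0.09 became -0.02 without Control replicate 2.

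**Figure D3:**
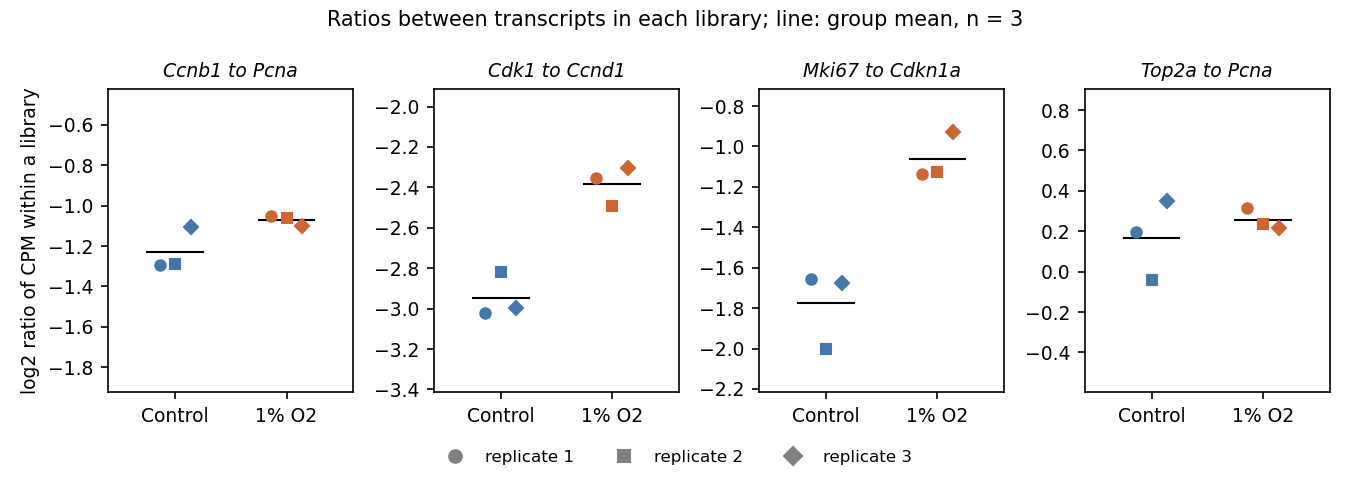
Log2 ratio of CPM between 2 transcripts within each library (vertical axes differ in position but have the same span); symbols give the replicate and lines the mean of 3 libraries. Cdk1 to Ccnd1 and Mki67 to Cdkn1a are higher in all Hypoxia libraries, by means of 0.56 and 0.71, Ccnb1 to Pcna barely separates, and Top2a to Pcna overlaps.

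The pattern of the 5 genes from Mki67 to Ccna2 over the 6 libraries was nearly flat, with a root mean square deviation of 0.05 log2 units from its mean. Ccnb1 and Ccna2 lay closest to this mean pattern, at 0.05 each, and Cdk1 farthest of the 5, at 0.11. Outside them, Pcna lay at 0.10, Ccnd1 at 0.21 and Cdkn1a at 0.39. The 5 genes enter the mean pattern themselves, so their distances cannot be set against those of genes outside it. Mki67 and Cdk1 lay no closer to the pattern than to a flat line (0.079 against 0.075 and 0.110 against 0.107). Top2a, Ccnb1 and Ccna2 lay closer to the pattern. Among the other tested genes, the nearest in pattern over the 6 libraries were ENSRNOG00000006327, at 0.013, and ENSRNOG00000027360, at 0.017. Neither passed the test between groups, with adjusted p of 0.595 and 0.700 by edgeR. ENSRNOG00000011467 and ENSRNOG00000015969 were nearest to the reverse of the pattern, at 0.023 each, and did not pass either (adjusted p of 0.905 and 0.745 by edgeR). With a pattern this flat, such likeness is near the spread between replicates.

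**Figure D4:**
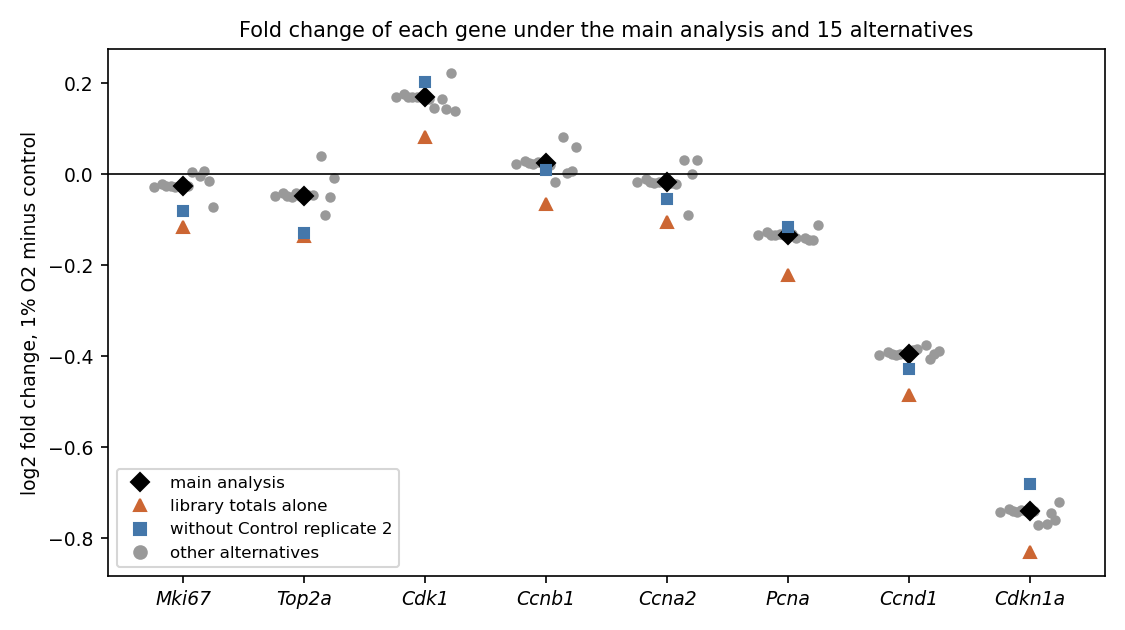
Log2 fold change of each gene (vertical axis, 1% O2 minus control) in the main analysis and under 15 alternatives of scaling, filter, test, depth and left-out libraries. Cdkn1a stays between -0.83 and -0.68 and Ccnd1 between -0.48 and -0.37, while Mki67, Top2a, Ccnb1 and Ccna2 fall on both sides of 0.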

How the data were processed

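The values deposited by the authors are unnormalized read counts, 1 row per Ensembl gene ID, for 6 mRNA libraries (stranded kit, per the labels). Per the submitters' processing notes, the authors used HISAT2, featureCounts and DESeq2 with build rn6; no version, annotation release or strand setting is given in these sources, so overlapping or antisense genes may share reads. Counts were analysed here with edgeR 4.0.16 (R 4.3.3): filterByExpr defaults (minimum count 10, minimum total 15), TMM factors, 1 group term over all 6 libraries, two-sided quasi-likelihood F-test, Benjamini-Hochberg over 12702 genes, threshold 0.05. The SE is the log2 fold change divided by the square root of F, and 95% intervals follow from it; both are approximate. Ratios used log2 CPM with a prior count of 2. The fit was tested on simulated data. Few genes were changed there, as many higher as lower, so the TMM scaling was not tested where many genes differ. Alternatives included DESeq2 1.42.0 and limma 3.58.1. Columns and samples matched 1 to 1. All 8 genes are named by rule, as are the like genes. The genes, lists and tests were chosen with earlier results of these data known; the gene lists could not be run without names.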

Additional observations from a re-analysis of the deposited data

How the results depend on the processing

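Cdkn1a and Ccnd1 kept direction and call under all 15 alternatives, at log2 fold changes of -0.83 to -0.68 and -0.48 to -0.37. The call for Cdk1 was lost under 9 of 15: library totals alone (0.0811), DESeq2 (0.17), limma-voom (0.17), thinning (0.17), the replicate block (0.17), and 4 of the 6 settings that leave out 1 library, which ranged from 0.14 to 0.22. With these settings 0 of the 8 genes were called higher in place of 1. The range without 1 library was 0 to 1. Pcna became a call with median-of-ratios factors (-0.13), a filter of 1 CPM in 3 libraries (-0.13), limma-voom (-0.13) and library totals (-0.22). Ccnb1 changed sign with library totals (-0.0646). The same setting gave the lowest values for Mki67 (-0.115), Top2a (-0.136) and Ccna2 (-0.105). Their adjusted p by edgeR were then 0.147, 0.154 and 0.264. Leaving out 1 library gave -0.0804 to 0.00733 for Mki67, -0.129 to 0.0412 for Top2a, -0.0160 to 0.0820 for Ccnb1, -0.0898 to 0.0322 for Ccna2 and -0.0157 to 0.18 for the ratio of Top2a to Pcna. The cause of these changes was not tested. Same-numbered libraries deviated from their group means with correlations of -0.04, -0.07 and 0.02, and differently numbered ones with -0.06 to 0.08; no label states a pairing, so the numbers were not taken as pairs. The replicate block gave 5295 calls over all genes in place of 5718 and changed no other call among the 8. The number of calls over all genes was 4580 to 6071 over the alternatives. The alternatives for the gene lists were not run. At this depth and number of libraries the SE of the 8 genes was 0.04 to 0.08, so differences of about the size seen for Cdk1 and Pcna lie at the edge of what can be called.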
